A study of Rattus norvegicus with 4 samples.

Results

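The genes described here are 9 members of the TNF, interleukin and IL-6 cytokine families in rat macrophages exposed to iron oxide: the ligand Tnf and its receptors Tnfrsf1a and Tnfrsf1b, the interleukins Il6, Il10, Il12b and Il23a, and the IL-6 family ligands Osm and Lif. They were chosen by symbol, and every non-control probe whose RefSeq accession belongs to one of these symbols was taken. That gave 13 probes of 45598, for 9 genes of 16581 that could be named. All samples are cultures of NR8383, an established alveolar macrophage line derived from rat lung lavage, kept for 4 h with Fe2O3 particles, NRCWE018, at 2 µg/mL. There are 4 exposed cultures, stated to be biological replicates, each on 1 single-colour array. The study set them against control cultures, which were not analysed here, so no value below is an effect of the particles. A single cell line stands for the alveolar macrophage, and in such bulk samples a smaller share of expressing cells and less RNA per cell cannot be told apart.

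TNF is an early cytokine of activated macrophages. It is made as a membrane protein, released by the protease ADAM17, and read by the widely expressed receptor TNFR1, which carries a death domain, and by TNFR2, which is more common on leukocytes. IL-6, oncostatin M and leukaemia inhibitory factor signal through receptor complexes that share the gp130 chain and activate STAT3. IL-10 restrains macrophage activation, and IL-12 and IL-23 share the p40 subunit encoded by Il12b.

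The array marks a spot as well above background when its signal clears the background by a margin set in the scanner software. The lowest signal so marked was 22.8, 20.7, 21.5 and 23.7 units on replicates 1 to 4, and 40.2%, 41.2%, 40.8% and 37.8% of probes carried the mark. The 75th percentile of signal, to which levels are set below, was 1072, 984.3, 1082 and 756.5 on replicates 1 to 4, so replicate 4 was the dimmest array. No spot was saturated, and precision is limited by having 4 arrays. Of 10 macrophage markers, 10 were marked on every array, including Cd68, Lyz2, Spi1 and Csf1r. Of the markers of other cell types, 1 of 6 T cell genes (Cd3d), 1 of 3 B cell genes (Pax5), 1 of 5 granulocyte genes (S100a8), 0 of 7 lung epithelium genes and 3 of 7 endothelium and fibroblast genes (Pecam1, Cdh5 and Dcn) were. All cultures are of a single established line. Which of its cells carry these markers, and what they add to the cytokine signals, was not tested.

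The family ranged from genes with clear signal to genes at the background. Tnf, Tnfrsf1a, Tnfrsf1b and Osm were well above background on all 4 arrays, Lif on 3, and Il6, Il10, Il12b and Il23a on none. The 4 of 9 members above background on all arrays make 44.4%, and the share over all 16581 named genes was 50.5%. The 4 of 9 on no array stand beside 43.0% of all named genes and the 1 of 9 on some arrays beside 6.45%, so these counts do not set the family apart from the rest of the array. Counted on at least 1 array, 5 of 9 members and 57.0% of named genes were above background. With every probe of a gene required on all arrays, 4 of 9 members and 45.3% of named genes were. The weaker mark of a signal significantly above background was carried on every array by 5 of 9 members and 59.0% of named genes. Of 52 member spots, 24 were well above background, 5 were significantly above it without reaching that mark, and 23 were neither. Each of those 23 spots had a processed signal between 0.993 and 0.997 times its own error estimate, so it shows a floor of 4.26 to 5.95 units and not a measured level.

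**Figure D1:**
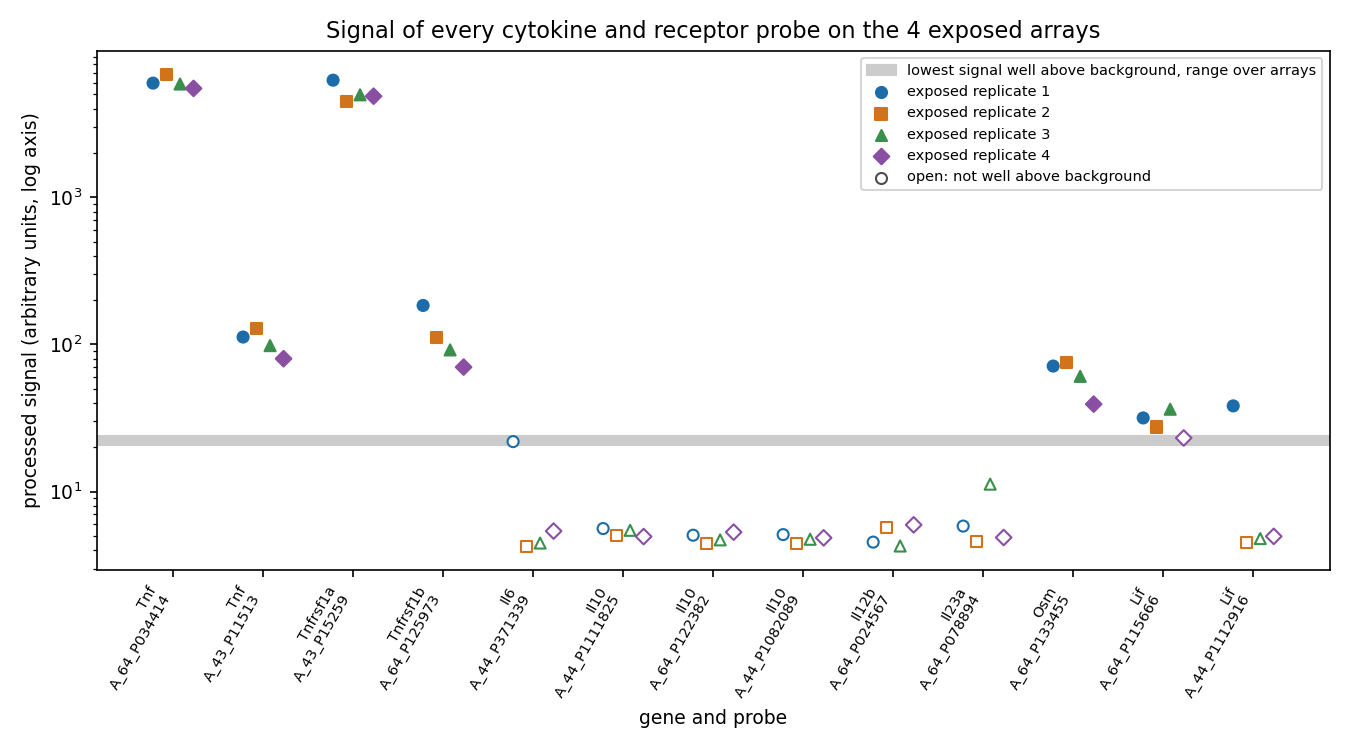
Processed signal (arbitrary units, log axis) of all 13 probes of the 9 genes in the 4 exposed cultures, with 1 point per array, filled where the spot was well above background and open where it was not. The grey band spans the lowest signal marked well above background on the 4 arrays, 20.7 to 23.7 units; Tnf, Tnfrsf1a, Tnfrsf1b and Osm lie above it on every array, and heights of different probes cannot be compared.

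Tnf, the ligand, was the member read by 2 probes that both cleared the background on every array. Probe A_64_P034414 gave 5970, 6848, 5883 and 5496 units on replicates 1 to 4. Relative to each array's 75th percentile, these are log2 levels of 2.48, 2.80, 2.44 and 2.86, a mean of 2.65 ± 0.22 (SD, n = 4). On this scale replicates 2 and 4 were high and replicates 1 and 3 low, and the highest culture exceeded the lowest 1.34-fold. Before scaling, replicate 4 had the lowest Tnf signal of the 4, so its place at the top comes with its lower 75th percentile.

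The second Tnf probe, A_43_P11513, gave 112, 128, 98.2 and 80.0 units on replicates 1 to 4. Its log2 levels were -3.25, -2.94, -3.46 and -3.24, a mean of -3.22 ± 0.21 (SD, n = 4). Both probes carry the same RefSeq accession, NM_012675. Both put replicate 3 lowest on this scale, whereas replicate 4 was highest by the first and replicate 2 by the second. Replicate 3 was lowest in 3 of 6 processing settings by the first probe and in 5 of 6 by the second. Signals of different probes cannot be compared, so the level of Tnf against other genes is not known from either.

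The receptors were measured by 1 probe each. Tnfrsf1a, encoding TNFR1, gave 6251, 4478, 4969 and 4865 units on replicates 1 to 4. Its log2 levels were 2.54, 2.19, 2.20 and 2.69, a mean of 2.40 ± 0.25 (SD, n = 4). Replicates 1 and 4 were high and replicates 2 and 3 low, a different order from that of the ligand. Before scaling, replicate 4 lay just below replicate 3, so its high place here too comes with its lower 75th percentile.

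Tnfrsf1b, encoding TNFR2, varied most between the cultures among the members above background on all arrays. It gave 184, 111, 91.8 and 70.2 units on replicates 1 to 4. On replicate 4 this was 2.96 times the lowest signal marked well above background on that array. The log2 levels were -2.54, -3.15, -3.56 and -3.43, a mean of -3.17 ± 0.45 (SD, n = 4), and replicate 1 stood 2.02-fold above replicate 3. Replicate 1 was the highest under all 6 processing settings examined, but the wide spread rests on that culture. Without replicate 1 the SD was 0.21 for Tnfrsf1b, 0.23 for Tnf, 0.28 for Tnfrsf1a and 0.29 for Osm, so Tnfrsf1b then varied least.

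Among the IL-6 family ligands, Osm, encoding oncostatin M, gave 71.3, 75.1, 60.7 and 39.3 units on replicates 1 to 4. Its log2 levels were -3.91, -3.71, -4.16 and -4.27, a mean of -4.01 ± 0.25 (SD, n = 4). Replicate 2 was the highest and replicate 4 the lowest, and on replicate 4 the signal was 1.66 times the lowest signal marked well above background on that array.

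Lif, encoding leukaemia inhibitory factor, lay at the edge of detection. Probe A_64_P115666 gave 31.7, 27.5, 36.3 and 23.2 units on replicates 1 to 4, well above background on replicates 1 to 3. On replicate 4 its signal was 0.977 times the lowest signal so marked, and it was still significantly above background. The second probe, A_44_P1112916, which carries the predicted transcript XM_008770359, gave 38.3 units on replicate 1 and 4.50, 4.80 and 4.97 units on replicates 2 to 4, the last 3 at the floor. The probes of Lif therefore did not read the same cultures as positive. On replicate 1 the local background beside that second probe was 56.5 units, and on replicates 2 to 4 it was 42, 47 and 43 units.

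The interleukins were not well above background in any culture. Il6, encoding the acute-phase cytokine IL-6, gave 21.9 units on replicate 1 and 4.26, 4.47 and 5.40 units on replicates 2 to 4. On replicate 1 the spot was significantly above background at 4.13 times its error, and 0.958 times the lowest signal marked well above background. The local background beside the Il6 spot was 41 units on that array and 47.5, 48.5 and 46 units on the others. Il23a, encoding the p19 subunit of IL-23, gave 5.83, 4.58, 11.2 and 4.88 units and was significantly above background on replicates 1 and 3. Il12b, encoding the p40 subunit, gave 4.54, 5.70, 4.27 and 5.95 units. It carried the weaker mark on replicate 2 alone, at 1.38 times its error. Il23a on replicate 1 and Il12b on replicate 2 lay within the range of the unmarked floor spots, 4.26 to 5.95 units. Il10 was significantly above background by none of its 3 probes on any array, with signals between 4.45 and 5.61 units. Expression below what a probe can detect remains possible at the floor, and Il6, Il12b and Il23a each rest on 1 probe.

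The promoters of Tnf and Il6 are shown because these are both classical genes of macrophage activation. Tnf was well above background on every array here and Il6 on none. RefSeq sequence on the GRCr8 assembly was matched by symbol for 5 of the 9 members, namely Tnf, Tnfrsf1a, Tnfrsf1b, Il6 and Il23a. The window runs from 250 bases before the annotated transcription start to 50 bases after it, at chr20:3626435-3626734 on the plus strand for Tnf and chr4:5894526-5894825 on the minus strand for Il6. Both strands were searched for GGGNNTTTC (most of an NF-kB site), TGACGTCA (a cyclic AMP response element), TGANTCA (an AP-1 site), TTGNGCAA (a C/EBP site) and TATAAA (the core promoter box). The motifs were chosen after the sequences had been seen. Capitals mark the matches, none of which overlap.
Tnf promoter: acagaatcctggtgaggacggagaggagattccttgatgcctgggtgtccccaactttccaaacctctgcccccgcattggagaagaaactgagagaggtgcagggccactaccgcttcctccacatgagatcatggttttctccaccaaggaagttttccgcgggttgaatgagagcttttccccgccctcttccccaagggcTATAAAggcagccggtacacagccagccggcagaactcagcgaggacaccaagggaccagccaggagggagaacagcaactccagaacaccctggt
Il6 promoter: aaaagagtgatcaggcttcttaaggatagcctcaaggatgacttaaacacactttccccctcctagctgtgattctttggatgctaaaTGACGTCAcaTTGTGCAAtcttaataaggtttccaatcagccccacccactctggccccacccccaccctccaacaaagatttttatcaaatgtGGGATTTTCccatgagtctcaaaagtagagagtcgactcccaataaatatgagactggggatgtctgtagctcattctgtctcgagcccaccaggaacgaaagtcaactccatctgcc
Il6 held the NF-kB letters from 68 to 60 bases before the start, those of the cyclic AMP response element from 162 to 155 and those of the C/EBP site from 152 to 145. These motifs match 4.53%, 1.83% and 2.61% of all 33469 promoters in the table. Tnf held TATAAA from 46 to 41 bases before its start, a match found in 14.2% of promoters, and none of the other motifs in these letters. Tnfrsf1b held 1 AP-1 match, a motif found in 7.33% of promoters, and 1 match to the NF-kB letters, and Tnfrsf1a and Il23a held no match. A match describes letters in this window, not binding.

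The spread between cultures was set against the error of a single spot. Feature Extraction's error estimate was between 10.0% and 19.4% of the signal for the 24 member spots well above background. It includes a proportional part that leaves no bright spot below 10.0%. For Tnfrsf1b, 3 of the 6 pairs of cultures differed by more than 2 combined errors, against 2 of 6 for Tnfrsf1a, 1 of 6 for each Tnf probe, 0 of 6 for Osm and 0 of 6 for Lif probe A_64_P115666. The SD between cultures was 2.78 times the mean spot error for Tnfrsf1b, 1.74 times for Tnfrsf1a, 1.49 times for Tnf probe A_64_P034414 and 1.29 times for Osm. All 4 arrays lay on 1 slide, each at its own position, so an effect of position cannot be told apart from one of culture.

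**Figure D2:**
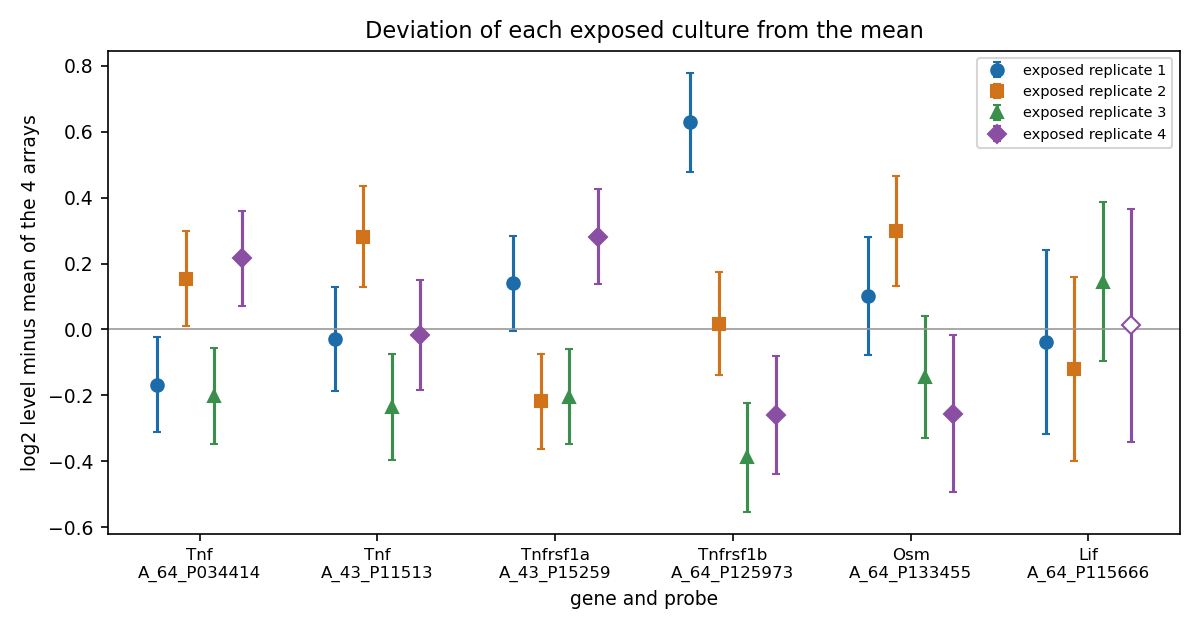
Deviation of the log2 level on each array from the mean of the 4 arrays, for the 6 probes above background on at least 3 arrays; error bars are ± 1 error estimate of the spot, and the open point is not well above background. Tnfrsf1b on replicate 1 is the point farthest from 0, and the order of the cultures differs between Tnf, Tnfrsf1a, Tnfrsf1b and Osm.

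No member passed a test of whether its cultures differed more than those of genes of like level. In limma's test, the variance of each gene over the 4 arrays was compared with a prior variance fitted to all genes as a trend on level, over the 8376 genes marked on every array. Of these genes, 0.191% passed at a Benjamini-Hochberg adjusted p of 0.05, and 0 of the 4 members did. The count of members with an unadjusted p under 0.05 was also 0, where 5.75% of all genes had one, and under 3 of 12 alternatives it was 1, Tnfrsf1b. The SD of Tnfrsf1b was 1.81 times the fitted value for its level (limma adjusted p = 0.937). The ratio was 1.61 for Tnfrsf1a (limma adjusted p = 0.979), 1.41 for Tnf (limma adjusted p = 0.995) and 0.906 for Osm (limma adjusted p = 0.995). With 4 arrays a p above the threshold does not show that the cultures were alike.

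**Figure D3:**
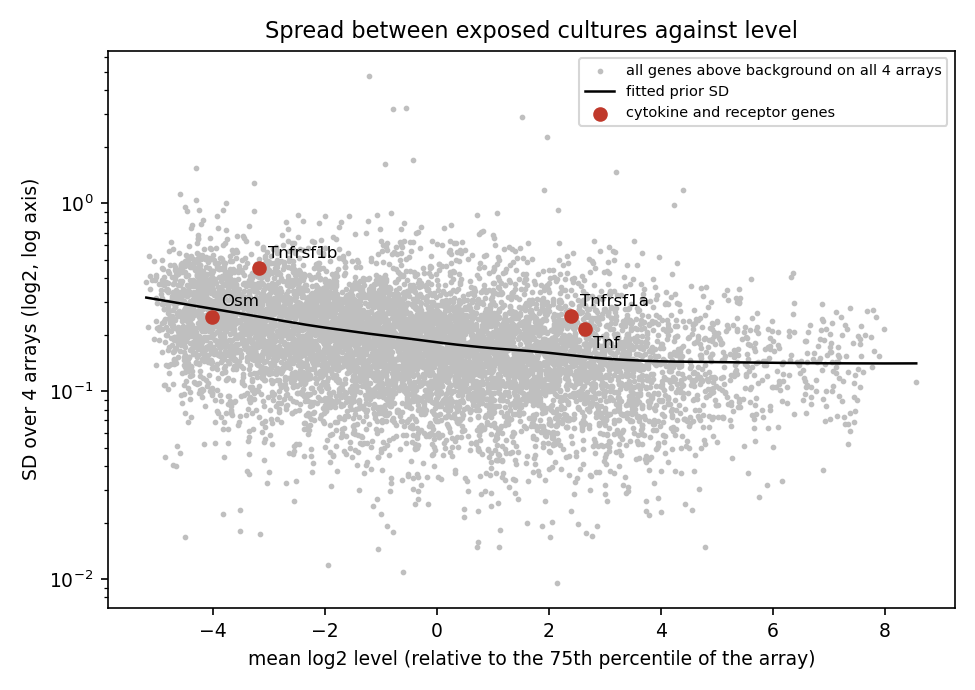
SD over the 4 exposed arrays (log2, log axis) against the mean log2 level of each of the 8376 genes above background on all arrays; the line is the fitted prior SD. Tnfrsf1b, Tnfrsf1a and Tnf lie above the line and Osm just below it, all within the cloud of genes of like level.

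The genes whose values over the 4 arrays were most like a member's were found by the root mean square difference of deviations from each gene's mean, among the other genes above background on all arrays. For Tnf these were Cpne1 (0.013 on the log2 scale), C10h17orf58 (0.017) and Pcif1 (0.022). For Tnfrsf1a they were Pcolce (0.016), Ubap2 (0.018) and Rbm22 (0.019). For Osm they were Tubgcp6 (0.012), Bhlhe23 (0.024) and Apbb1 (0.033). Tnfrsf1b had no gene as close, with Slc28a2 at 0.11, Rab11fip1 at 0.12 and Pcmtd1 at 0.12. These rest on 4 values per gene that share array and scaling.

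The machinery around TNF was detected in every culture. Of 20 measured genes of TNF release and proximal signalling, every array showed 20 above background, where 50.5% of all named genes were. They include the shedding protease Adam17 (-1.51 ± 0.10), its cofactor Rhbdf2 (1.15 ± 0.19), the TNFR1 adaptor Tradd (2.35 ± 0.09), the kinase Ripk1 (0.46 ± 0.10), the initiator caspase Casp8 (-1.30 ± 0.14) and the ubiquitin ligase Birc3 (-4.61 ± 0.27; log2 level, SD, n = 4). The kinase regulator Ikbkg, also called NEMO, was at 0.93, 0.95, 0.99 and 0.91 on replicates 1 to 4, close to equal in all cultures. The median SD of the list was 0.16, against 0.18 for all 8376 genes, and 0 of its genes passed the test of spread. The list was chosen with earlier results of these data known, and its share above background was not tested.

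For the IL-6 family, the shared receptor chain was detected and the ligand-specific chains of Osm and Lif were not. Of 15 measured genes, 9 (60%, beside 50.5% of all named genes) were marked on every array, 1 was on some arrays and 5 were at background throughout. The gp130 chain Il6st was at -1.88, -1.82, -1.41 and -1.27 on replicates 1 to 4. The IL-6 receptor Il6r was at -1.52, -1.62, -1.10 and -1.32. Both were higher on replicates 3 and 4 than on replicates 1 and 2, but neither passed the test of spread (limma adjusted p = 0.991 for Il6st and 0.995 for Il6r). The oncostatin M receptor Osmr, the LIF receptor Lifr and the IL-11 receptor Il11ra1 were above background on no array, by 1 probe each, as was the ligand Il11. Cntf was above background on 2 arrays. The kinases Jak1 (2.62 ± 0.21), Jak2 and Tyk2 (-0.97 ± 0.19) and the feedback inhibitor Socs3 (-0.12 ± 0.20) were above it on all arrays (log2 level, SD, n = 4). The transcription factor Stat3 was at 1.26, 0.65, 1.19 and 2.08, low on replicate 2 and high on replicate 4, and did not pass over all genes (limma adjusted p = 0.211). The list's median SD was 0.21.

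The IL-10 and IL-12 axes were detected in part. Of 6 measured genes of IL-10 receptor signalling, 4 (66.7%, beside 50.5% of all named genes) were marked on every array and 2 on some, with a median SD of 0.13. The shared chain Il10rb was at 0.75 ± 0.10 (log2 level, SD, n = 4), and the ligand-binding chain Il10ra and the inhibitor Socs1 were above background on 1 array each. Bcl3, a nuclear partner of NF-kB, was at -0.89, -1.65, -1.97 and -1.12 on replicates 1 to 4 (limma adjusted p = 0.578). In the IL-12 and IL-23 list, 1 of 5 measured genes (20.0%) was above background on all arrays. This was Ebi3, a p40-like subunit of IL-27, at -1.09, -1.05, -1.49 and -0.67. The p35 subunit Il12a, the receptor chains Il12rb1 and Il12rb2, and Stat4 were above background on none.

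**Figure D4:**
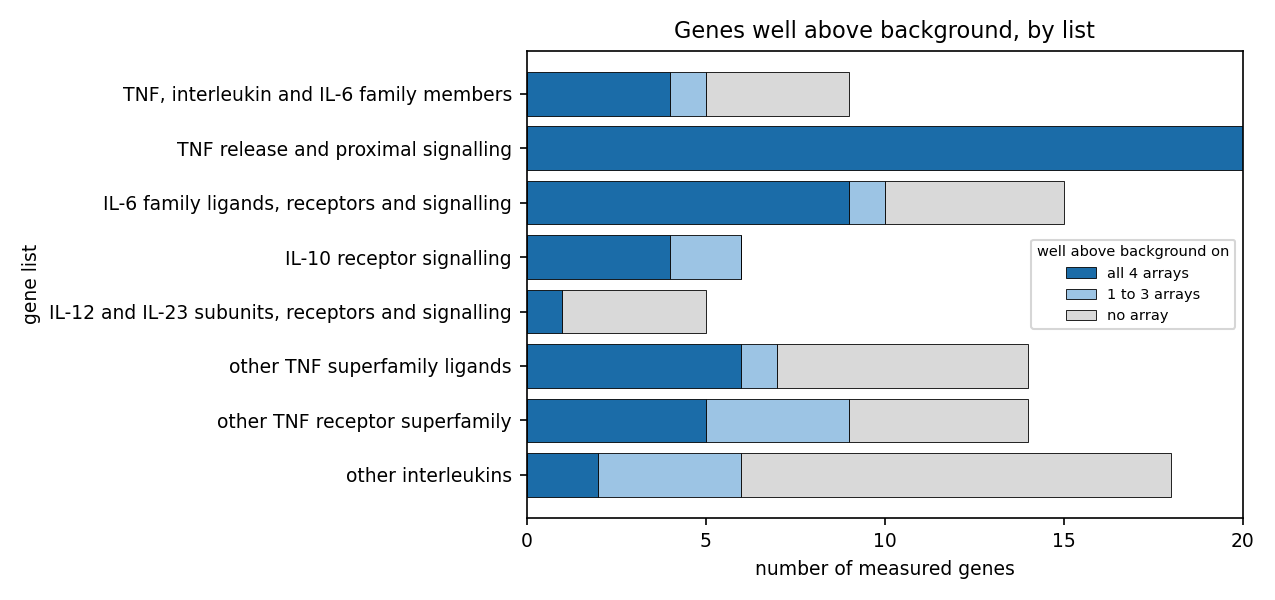
Number of measured genes well above background on all 4 arrays, on 1 to 3 arrays and on no array, for the 9 genes described here and for 7 lists of related genes. The bar for TNF release and proximal signalling is filled for 20 of 20 genes, and that for other interleukins for 2 of 18.

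Related ligands and receptors were detected in part. Of 14 other TNF superfamily ligands, 6 (42.9%, beside 50.5% of all named genes) were marked on every array, 1 was on some arrays and 7 were at background throughout, with a median SD of 0.21. Ltb, a membrane partner of lymphotoxin, was at -0.06 ± 0.19, and Tnfsf13, the B cell factor APRIL, at 2.65 ± 0.18 (log2 level, SD, n = 4). Tnfsf12, the ligand TWEAK, was at 3.41, 3.16, 2.94 and 2.40 on replicates 1 to 4 (limma adjusted p = 0.359). Of 14 other TNF receptor superfamily genes, 5 (35.7%) were marked on every array, 4 were on some arrays and 5 were at background throughout, and the list's median SD was 0.15. Ltbr, the lymphotoxin beta receptor, was at 4.04 ± 0.15 (log2 level, SD, n = 4), and the costimulatory receptor Cd40 was above background on no array. Of 18 other interleukins, 2 (11.1%) were marked on every array, 4 were on some arrays and 12 were at background throughout, with a median SD of 0.20. The 2 were Il7 (-1.37 ± 0.16) and Il16 (-2.62 ± 0.23; log2 level, SD, n = 4), and Il15 and Il34 were above background on 3 arrays each. No gene of the 7 lists passed the test of spread.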

How the data were processed

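Per the labels' protocols, cRNA from total RNA carried Cy3 and was read on Agilent 1-colour arrays. Agilent Feature Extraction 11.0.1.1 is named in the submitters' processing notes as the source of the deposited intensity values. Per the file headers, signal intensity was background-subtracted and detrended within each array, with no scaling between arrays, and the grid is annotated on rn4. The error estimate, the median spot and local background intensity and the marks of 0 or 1 are the deposited columns. The authors' scaling between arrays and tests are not given in the sources used here.

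By title, all 4 samples belong to 1 group. The arrays all differ from each other. Control spots and outlier-marked spots were left out, except where every spot of a probe was marked. Log2 of the processed signal was set to each array's 75th percentile. Accessions were matched without version to the RefSeq gene table of GRCr8, which named 21109 of 45598 probes and none with several symbols; other probes were not used. Each gene takes its probe with the most arrays above background, then with the highest mean. Repeat spots count as above background when most of them are; each member probe has 1 spot per array.

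The test of spread used limma 3.58.1 in R 4.3.3, with data.table (version 1.17.8): variance over 4 arrays against a robust prior with a trend on level, prior degrees of freedom 9.16, upper-tail F test, Benjamini-Hochberg over 8376 genes. It was also run on data simulated from its own fitted prior, which cannot show how it behaves on these arrays. Named genes are the 9 members, the 3 nearest patterns of each member above background, and genes of 7 related lists and 6 marker lists. Members, lists and tests were chosen with earlier results of these data known. Alternatives were the background correction, scaling, detection mark, prior, outlier marks, probe choice and omission of each replicate.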

Additional observations from a re-analysis of the deposited data

Results flagged for a closer look

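Dixon's test of an array far from the others was applied to 60 sets of 4 values, 13 member probes and 47 related genes, and 3 stood out, where chance gives about 1 in 20. Replicate 1 stood apart for Il6, whose gap to the nearest other array was 0.936 of the whole range of processed signal. Replicate 1 also stood apart for Lif probe A_44_P1112916, with 0.986. The other 3 values of both probes were at the floor, and on the log2 scale neither gap passes the critical value. Rhbdf2, the cofactor of the TNF-shedding protease, was at 1.28, 1.23, 0.88 and 1.22 on replicates 1 to 4, with replicate 3 apart at 0.861.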

How the results depend on the processing

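No paired analysis was possible because the samples form 1 group. The number of members above background was 4 in the main setting and 4 or 5 under every alternative run (4 to 5 when leaving out each replicate), the 1 added gene being Lif. Of the members, 0 passed the test of spread in any of 12 alternatives, with adjusted p in limma from 0.773 to 0.997 for Tnf, Tnfrsf1a, Tnfrsf1b and Osm, and of 0.998 or more for Lif in the 3 that tested it. The unadjusted p of Tnfrsf1b was under 0.05 with quantile normalization, with a constant prior and without replicate 4. Over all genes the count was 16, and 156 with normexp background correction, 5 with a constant prior, 10 without a robust prior and 25 with outlier-marked spots kept; it was 7 to 22 when leaving out each replicate, with 7 without replicate 2. When the 75th percentile was computed from probes marked on every array, the median of all genes moved by -1.24, and the mean log2 level was 1.41 for Tnf, 1.16 for Tnfrsf1a, -4.41 for Tnfrsf1b and -5.25 for Osm. With outlier-marked spots kept, that median moved by -0.18. Normexp, whose offset of 50 compresses dim probes, gave -2.52 for Tnfrsf1b and -2.93 for Osm. The mean over both probes of Tnf was -0.29. Of 6 processing settings compared for the order of cultures, 1 was normexp background correction. Another was without scaling and was added after seeing the data. Over these 6, the highest culture was the same in 6 for Tnfrsf1b and Osm and in 4 for Tnf and Tnfrsf1a. The lowest culture was the same in 6 for Tnfrsf1a, in 5 for Tnfrsf1b and Osm and in 3 for Tnf. Low signal limits Lif, Osm and the 4 interleukins. Tnfrsf1b and Tnf probe A_43_P11513 were also dim, on replicate 4 at 2.96 and 3.38 times the lowest signal marked well above background.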
